A study of Homo sapiens with 12 samples.

Results

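The genes described here are 28 reported targets of the miR-302 family of microRNAs, taken by name from earlier reports on this family. Each target was listed for those reports and not for its own value, while the decision to describe this set was made with earlier results of these data known. They were read in human embryonic stem cells on Illumina bead arrays, where the brightest detected probe annotated to a gene stood for it. Of the 28 targets, 25 had a probe, and all 25 were detected and tested among 13951 genes. NR2F2, BTG2 and ARID4A had no probe in the annotation used and were not analysed here.

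The cells were H9 and CT2, 2 established human embryonic stem cell lines. Each line was given an shRNA against JMJD1C (called knockdown below), given a mismatch shRNA that served as the control hairpin, or left untreated, with 2 arrays for each of the 6 groups and 12 arrays in all. JMJD1C belongs to the jumonji family of histone demethylases. The labels name no clone, no vector and no time after delivery, and nothing in them says that the 2 arrays of a group came from separate cultures, so p-values measure the spread between arrays, which may be technical.

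MicroRNAs guide Argonaute proteins to messenger RNAs that pair with a short stretch near the microRNA's 5′ end, the seed, and the paired transcripts are degraded or translated less. The miR-302 cluster is among the most abundant sources of microRNA in human embryonic stem cells and lies within the gene LARP7. Its reported targets include regulators of the G1 phase, the antiproliferative BTG and TOB proteins, chromatin proteins and TGF-beta and Hippo components, and the family is known for its part in pluripotency and in reprogramming.

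The mature sequences are shown because members of the family are grouped by their seed, given in capitals (bases 2 to 8 from the 5′ end). They and their positions are from RefSeq on GRCh38.p14. The first 6 below share the seed AAGUGCU, which pairs with AGCACUU in a target, and the last 2 are neighbours by name with another seed.
hsa-miR-302a-3p: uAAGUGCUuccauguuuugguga
hsa-miR-302b-3p: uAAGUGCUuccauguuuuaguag
hsa-miR-302c-3p: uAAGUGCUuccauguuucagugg
hsa-miR-302d-3p: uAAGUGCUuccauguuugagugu
hsa-miR-372-3p: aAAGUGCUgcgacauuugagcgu
hsa-miR-373-3p: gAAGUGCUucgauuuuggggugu
hsa-miR-302f: uAAUUGCUuccauguuu
hsa-miR-371a-3p: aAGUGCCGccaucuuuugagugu
The mature forms of miR-302a to miR-302d are identical over their first 17 bases and differ only in the 3′ part. They lie on the minus strand of chromosome 4, at chr4:112648186-112648208 (miR-302a-3p), chr4:112648489-112648511 (miR-302b-3p), chr4:112648366-112648388 (miR-302c-3p) and chr4:112648006-112648028 (miR-302d-3p). On the plus strand of chromosome 19 are miR-372-3p (chr19:53787931-53787953), miR-373-3p (chr19:53788748-53788770) and miR-371a-3p (chr19:53787716-53787738), while miR-302f is at chr18:30298936-30298952 on the plus strand. Of 2370 human mature microRNA names in the RefSeq table, 12 carry the seed AAGUGCU, the other 6 being miR-302e and 5 miR-520 forms. Target sites were not searched, since no transcript sequence was used here.

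Across the 12 arrays the median raw intensity ran from 150.2 to 196.8 and 44.7% to 47.31% of probes were detected. The 2 arrays of a group had r between 0.9675 and 0.9909 over the genes tested, which are no independent replicates. CT2 mismatch replicate 2 stood apart, with its best match in H9 untreated replicate 1 (r = 0.9715) and not in its own replicate (r = 0.9675). The pair of arrays was set from an earlier analysis of these data. Results by gene that rest on it, though not those of further probes, are given with and without these 2 arrays. They are not the only ones to match another group better than their own replicate: CT2 mismatch replicate 1 matched CT2 knockdown replicate 1 best (r = 0.9759), H9 untreated replicate 2 matched H9 mismatch replicate 1 (r = 0.9851) and CT2 knockdown replicate 2 matched CT2 untreated replicate 2 (r = 0.9871), while H9 untreated replicate 1 matched its own replicate best (r = 0.9787). Omission of CT2 mismatch replicate 1 alone moved the count of targets called, given below, to 7. JMJD1C itself read 10.58 and 10.68 on the H9 knockdown arrays, against 11.93 and 11.49 with mismatch shRNA, and 10.75 and 10.69 on the CT2 knockdown arrays, against 12.04 and 12.36 with mismatch shRNA (log2 normalized intensity). It was reduced to 41.1% of mismatch as the mean of the lines (adjusted p = 0.000726). All 9 pluripotent stem cell markers were detected on all 12 arrays and averaged over the lines 0 passed the test of knockdown against mismatch shRNA (2 at an unadjusted p under 0.05). By line ZFP42, a zinc finger protein also called REX1, passed in both, in opposite directions. It read 12.18 and 12.32 in the H9 knockdown, against 13.4 and 13.54 with mismatch shRNA (-1.22, adjusted p = 0.00066), and 13.7 and 13.83 in the CT2 knockdown, against 13.14 and 13.07 with mismatch shRNA (0.66, adjusted p = 0.0389). The difference between the lines passed as well (-1.88 ± 0.24, H9 minus CT2, adjusted p = 0.000813), and against untreated cells ZFP42 fell by 0.58 as the mean of the lines (adjusted p = 0.0134). The H9 call was kept under all 21 alternative settings, the CT2 call under 8 and the call against untreated cells under 14, the CT2 call being lost without any 1 of the arrays of either line's knockdown, among others. Their summed linear level was 139689 to 151185 on H9 knockdown arrays, 144745 to 147589 with mismatch shRNA and 156857 to 176194 without treatment. In CT2 it was 153969 to 161644 in the knockdown, 153669 to 161522 with mismatch shRNA and 147539 to 160878 without treatment. Of 8 fibroblast markers 6 were measured, 3 of them on all arrays, and THY1 rose while COL1A1 fell (log2 fold changes of 0.71 and -1.05, adjusted p = 0.00136 and 0.00433). The fibroblast sum was 13535 to 14339 in the H9 knockdown, 9286 to 9845 with mismatch shRNA and 9943 to 10643 without treatment. In CT2 it was 10695 to 13062 in the knockdown, 8304 to 10421 with mismatch shRNA and 10387 to 10407 without treatment. THY1 was the brightest of the 6, at 12.4 to 13.51 on the log2 scale, against 10.43 to 11.29 for COL1A2 and 8.576 to 11.1 for COL1A1. The fibroblast sum thus mostly follows THY1, and the other 4 measured markers did not pass (COL1A2 0.16, adjusted p = 0.67). The part of these marker differences in the results below was not tested. Of the markers of neural progenitors 3 of 7 were measured, of mesoderm and endoderm 3 of 8 and of trophoblast and amnion 3 of 7, and 0 of these passed the test (1 in each list at an unadjusted p under 0.05). In these bulk samples fewer cells of a type and less RNA per cell cannot be told apart.

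The first question was which targets differed between knockdown and control hairpin. Averaged over the lines, 2 of the 25 measured targets passed for knockdown against mismatch shRNA (8%), where 6.57% of all genes tested did (limma, Benjamini-Hochberg adjusted p under 0.05). CCND2, a D-type cyclin, rose 1.52-fold, and CCND1, another D-type cyclin, fell to 71.8% of its mismatch level. The other 23 did not pass, and 7 of the 25 had an unadjusted p under 0.05. The share of all genes at that unadjusted level is not given here. Unadjusted counts, in this paragraph and elsewhere, are therefore no result about the targets. The fitted difference was positive for 10 targets and negative for 15. The median over the targets was -0.05 on the log2 scale, beside 0.01 over all genes tested. Under median scaling the targets' median was 0.0537, while that of all genes moved to 0.12. The quartiles were -0.28 and 0.31 for the targets and -0.20 and 0.22 for all genes. For the mean of the lines on the brightest probe, the 95% interval of every target's difference lay between -0.934 and 0.916. A 2-fold change of that mean (1 log2 unit) lay outside all 25, though KDM1B, HIPK3 and MBNL2 read near background. CFL2, detected on all 12 arrays, read low as well, at 6.027 to 6.865. The standard errors of the 25 means ran from 0.113 to 0.314 log2 units with a median of 0.181. This does not cover single lines or other probes. LATS2 in H9 gave -1.33 (95% interval -2.01 to -0.646), and a dimmer SMARCC2 probe gave -0.97 ± 0.22 as the mean of the lines.

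**Figure D1:**
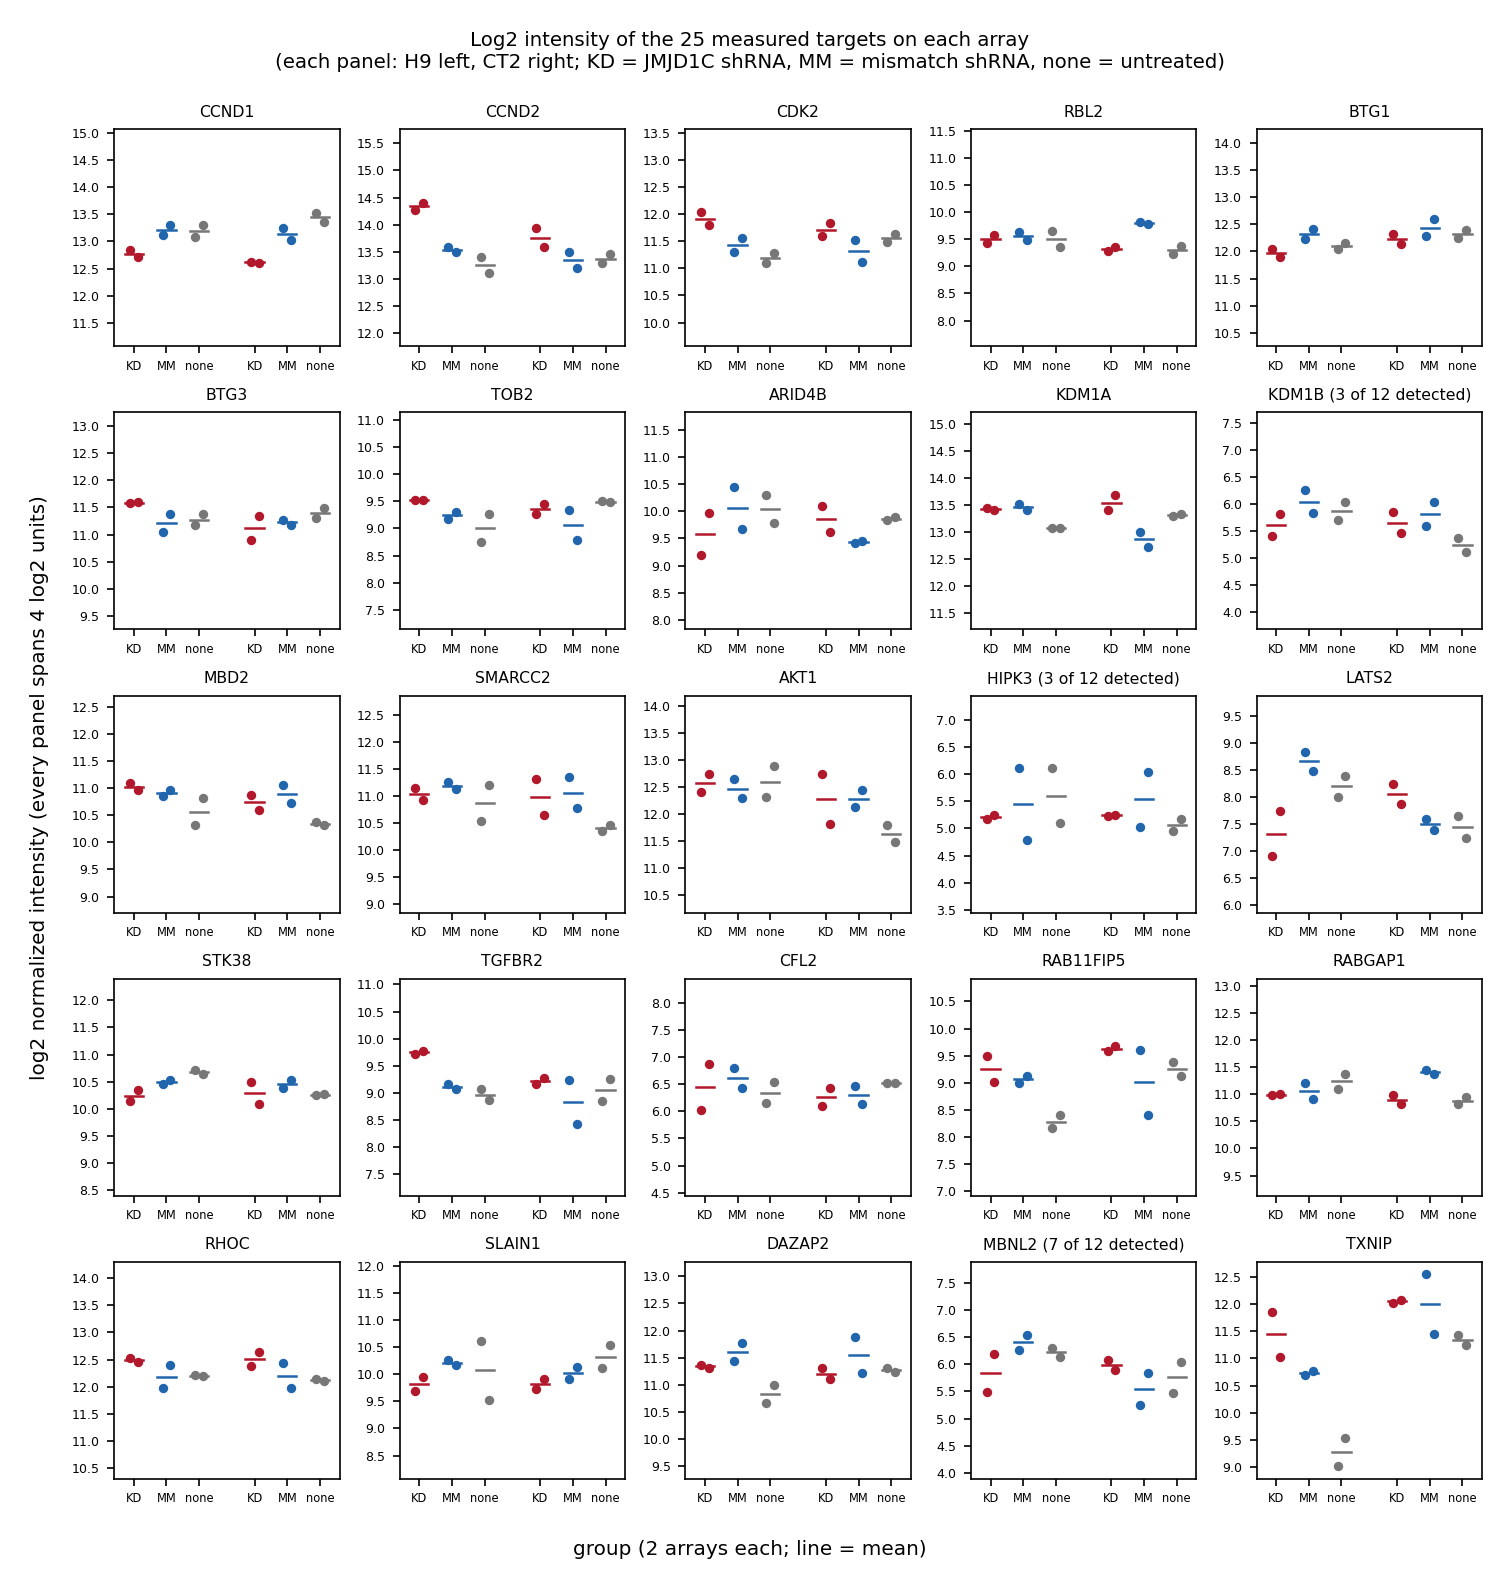
Log2 normalized intensity of the 25 measured targets on each of the 12 arrays, 1 panel per gene with H9 left and CT2 right, ordered JMJD1C shRNA (KD), mismatch shRNA (MM) and untreated (none). Points are arrays and lines are the means of 2 arrays; every panel spans 4 log2 units, and TXNIP has the widest span of group means, 2.78.

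**Figure D2:**
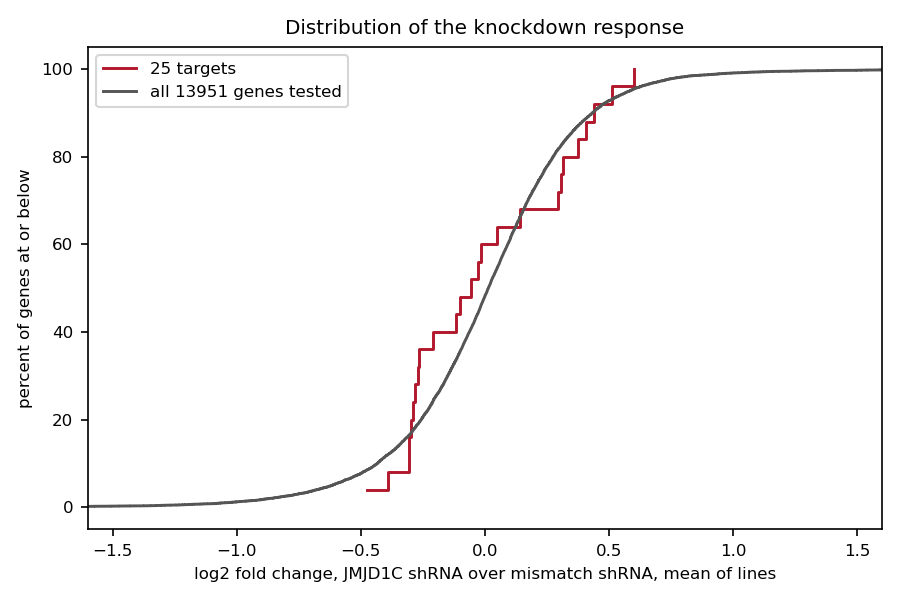
Cumulative percent of genes at or below each log2 fold change of knockdown over mismatch shRNA (mean of lines), for the 25 targets and for all 13951 genes tested. The medians are -0.05 for the targets and 0.01 for all genes, and the targets' quartiles of -0.28 and 0.31 lie outside those of all genes.

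The regulators of the G1 phase held both targets that passed. D-type cyclins switch on CDK4 and CDK6, which phosphorylate the retinoblastoma family and open the way to S phase. CCND1 read 12.84 and 12.71 on the H9 knockdown arrays, against 13.11 and 13.31 with mismatch shRNA and 13.09 and 13.3 without treatment. In CT2 it read 12.63 and 12.6 in the knockdown, against 13.24 and 13.03 with mismatch shRNA and 13.53 and 13.36 without treatment. All 4 knockdown arrays thus lay below all 8 others, across both lines. The log2 fold change against mismatch shRNA was -0.48 ± 0.12 (SE, adjusted p = 0.0200), with -0.43 in H9 (adjusted p = 0.248) and -0.52 in CT2 (adjusted p = 0.0823). The call for the mean of the lines was lost under median scaling (-0.308, adjusted p = 0.366) and without the intensity trend (adjusted p = 0.0736). It was also lost without CT2 knockdown replicate 1 (0.0523) or 2 (0.0824), H9 knockdown replicate 1 (0.051) or 2 (0.0952) and H9 mismatch replicate 2 (0.102), with values between -0.425 and -0.51.

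CCND2 went the other way. It read 14.27 and 14.4 in the H9 knockdown, against 13.59 and 13.49 with mismatch shRNA and 13.4 and 13.11 without treatment. The CT2 knockdown arrays read 13.94 and 13.58, against 13.49 and 13.2 with mismatch shRNA and 13.3 and 13.45 without treatment. Knockdown arrays were the highest in both lines, with a wider gap in H9 than in CT2 in these arrays. Its log2 fold change was 0.60 ± 0.12 (adjusted p = 0.00691) and passed under all 21 alternative settings (0.511 to 0.727). In H9 alone it was 0.79 ± 0.17 (adjusted p = 0.0177) and in CT2 0.41 ± 0.17 (adjusted p = 0.187), and the difference between the lines did not pass (0.38 ± 0.24, adjusted p = 0.608). The H9 call was lost without the trend (0.103) and when any of the 4 hairpin arrays of H9 was omitted, with adjusted p = 0.0938 and 0.208 for knockdown replicates 1 and 2 and 0.119 and 0.182 for mismatch replicates 1 and 2. A second CCND2 probe gave 0.65 ± 0.15 (adjusted p = 0.0251 over all kept probes).

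CDK2, the kinase that acts with cyclins E and A at the G1/S boundary, had 12.03 and 11.8 in the H9 knockdown, against 11.3 and 11.55 with mismatch shRNA and 11.09 and 11.29 without treatment. In CT2 the values were 11.59 and 11.84 in the knockdown, against 11.53 and 11.12 with mismatch shRNA and 11.49 and 11.64 without treatment. The knockdown arrays lay above the mismatch arrays in both lines, but in CT2 they overlapped the untreated ones. The log2 fold change of 0.44 ± 0.15 did not pass (adjusted p = 0.0833). It passed when the mean of all detected probes stood for the gene (0.579, adjusted p = 0.0295) and without CT2 mismatch replicate 1 (0.543, adjusted p = 0.0231), and a second CDK2 probe gave 0.72 ± 0.22 (adjusted p = 0.085). RBL2, the pocket protein p130 that holds E2F genes silent in resting cells, gave -0.27 ± 0.16 (adjusted p = 0.356). In CT2 its knockdown arrays (9.29 and 9.36) lay below the mismatch arrays (9.82 and 9.78) and beside the untreated ones (9.22 and 9.38).

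Of 21 further genes of the cyclin D, CDK and RB pathway 19 were measured, of which 1 rose, 0 fell and 18 did not pass as the mean of the lines, with a median of 0.13. In H9 alone CDK6, a partner of the D-type cyclins, fell by 1.11 ± 0.24 (adjusted p = 0.0154), with 0.36 in CT2 (adjusted p = 0.418), a call lost under median scaling and without any 1 of the 4 hairpin arrays of H9. CCNE1, the cyclin that activates CDK2, was the one that rose as the mean of the lines (0.59 ± 0.14, adjusted p = 0.0151). Its arrays read 11.85 and 11.72 in the H9 knockdown, against 11.23 and 11.43 with mismatch shRNA, and 11.53 and 11.69 in the CT2 knockdown, against 10.92 and 10.85 with mismatch shRNA. The untreated CT2 arrays, at 11.71 and 11.59, lay at the level of the knockdown, and against untreated cells CCNE1 gave 0.14 (adjusted p = 0.682). The CCNE1 call was kept under 17 of 21 alternative settings, and was lost without CT2 knockdown replicate 2, either H9 knockdown array or H9 mismatch replicate 1 (highest adjusted p 0.084).

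BTG and TOB proteins restrain growth and bind the CCR4-NOT complex, which removes poly(A) tails. Of the 4, 3 were measured and 0 passed (1 at an unadjusted p under 0.05). BTG1 gave -0.28 ± 0.13 (adjusted p = 0.212), BTG3 0.14 ± 0.15 (adjusted p = 0.641) and TOB2 0.30 ± 0.18 (adjusted p = 0.376). For BTG1 the H9 knockdown arrays (12.04 and 11.9) lay below the mismatch arrays (12.23 and 12.41), while in CT2 the 2 groups overlapped (12.33 and 12.13, against 12.28 and 12.6). BTG3 in H9 was at 11.58 and 11.6 in the knockdown, against 11.05 and 11.37 with mismatch shRNA. Its second probe had the opposite sign as the mean of the lines (-0.08) but the same sign within each line. That probe gave 0.55 in H9 and -0.70 in CT2, where the brightest gave 0.38 and -0.10. Among TOB1, BTG4 and subunits of CCR4-NOT 12 of 14 were measured and 0 passed in either direction, adjusted or unadjusted (median -0.003).

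The chromatin targets include KDM1A, the histone H3 lysine 4 demethylase LSD1, its paralogue KDM1B, MBD2, which binds methylated DNA, SMARCC2, a subunit of the BAF remodelling complex, and ARID4B, a subunit of the SIN3 deacetylase complex. Of the 6, 5 were measured and 0 passed as the mean of the lines (1, KDM1A, at an unadjusted p under 0.05). KDM1A read 13.44 and 13.4 in the H9 knockdown, against 13.51 and 13.41 with mismatch shRNA and 13.08 and 13.08 without treatment. In CT2 it read 13.4 and 13.68 in the knockdown, against 13 and 12.73 with mismatch shRNA and 13.29 and 13.34 without treatment. The CT2 mismatch arrays were the lowest of all 12, whereas in H9 both hairpin groups lay above the untreated arrays. KDM1A was the only target to pass in CT2 alone, where it rose 1.59-fold against mismatch shRNA (0.67 ± 0.16, adjusted p = 0.0278), with -0.04 in H9 (adjusted p = 0.971). H9 minus CT2 was -0.71 ± 0.23 for these responses and did not pass (adjusted p = 0.234). Against untreated CT2 cells the knockdown gave 0.22 (adjusted p = 0.788).

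The KDM1A call in CT2 did not hold when CT2 mismatch replicate 2 was omitted (0.534, adjusted p = 0.135), nor without CT2 knockdown replicate 2 (0.533, 0.303) or CT2 untreated replicate 1 or 2 (0.0521 and 0.0524). It was lost as well without both arrays that stood apart (0.534, adjusted p = 0.0723), without the trend (0.0939) and with the replicate block (0.0561). KDM1B was detected on only 3 of 12 arrays and gets no fold. MBD2 gave -0.02 ± 0.16 (adjusted p = 0.968) and ARID4B -0.03 ± 0.22 (adjusted p = 0.964). The ARID4B values in the 2 lines were -0.47 (H9) and 0.42 (CT2), but another probe detected on all 12 arrays had them the other way round, 0.26 (H9) and -0.45 (CT2). The remaining probe gave 0.25 as the mean of the lines, with -0.08 in H9 and 0.59 in CT2, the same directions as the brightest probe.

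SMARCC2 depended on the probe. By its brightest probe it gave -0.12 ± 0.19 (adjusted p = 0.793). A dimmer probe, ILMN_1791770, read 8.57 and 8.52 in the H9 knockdown, against 8.9 and 9.07 with mismatch shRNA and 9.41 and 9.6 without treatment. The same probe read 8.22 and 7.81 in the CT2 knockdown, against 9.01 and 10.01 with mismatch shRNA and 7.17 and 7.31 without treatment. Within CT2 the mismatch arrays were thus the highest, and the untreated CT2 arrays were the lowest of all 12. This probe fell in the knockdown by 0.97 ± 0.22 as the mean of the lines (adjusted p = 0.0195 over all kept probes) and by 1.50 in CT2 (adjusted p = 0.0197). Between the untreated lines it was higher in H9 by 2.26 ± 0.31 (adjusted p = 0.000423), where the brightest probe gave 0.47 ± 0.27 (adjusted p = 0.268). The other kept SMARCC2 probe was detected on 2 arrays only and had the opposite sign.

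Among 23 further genes of the CoREST, NuRD, SIN3 and BAF complexes 22 were measured, of which 1 rose, 1 fell and 20 did not pass as the mean of the lines (median -0.03). The 2 were paralogous subunits of NuRD: GATAD2A rose by 0.52 ± 0.13 (adjusted p = 0.0241) and GATAD2B fell by 0.75 ± 0.21 (adjusted p = 0.0395). Neither passed against untreated cells, with 0.10 and 0.05 (adjusted p = 0.759 and 0.941). The CT2 mismatch arrays held the lowest GATAD2A values of the 12 (12.61 and 12.35), and replicate 2 of that group the highest GATAD2B value (10.27). The GATAD2A call was kept under 14 and the GATAD2B call under 9 of 21 alternative settings, the losses including those without CT2 mismatch replicate 2.

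The receptor and kinase targets were TGFBR2, the type II receptor for TGF-beta, the Hippo kinase LATS2, its relative STK38, the growth factor kinase AKT1 and the nuclear kinase HIPK3. Of these 5, 0 passed as the mean of the lines (1, TGFBR2, at an unadjusted p under 0.05). LATS2 read 6.91 and 7.75 on the H9 knockdown arrays, against 8.84 and 8.47 with mismatch shRNA and 8 and 8.39 without treatment. In CT2 the knockdown arrays were the highest, at 8.23 and 7.86, against 7.6 and 7.39 with mismatch shRNA and 7.64 and 7.25 without treatment. Knockdown and mismatch arrays did not overlap in either line, the knockdown being lower in H9 and higher in CT2, while mismatch and untreated arrays overlapped in CT2. In H9 LATS2 fell to 39.8% of its mismatch level (-1.33 ± 0.32, adjusted p = 0.0362), and in CT2 the difference of 0.55 ± 0.32 did not pass (adjusted p = 0.360). The size depended on the processing, and over the alternative settings the H9 value lay between -1.74 and -0.832. The difference between the lines was -1.88 ± 0.46 (H9 minus CT2) and did not pass either (adjusted p = 0.0931). It was -1.16 without background correction and -1.24 in the authors' processed table. With CT2 mismatch replicate 1 omitted it did pass (-1.98, adjusted p = 0.0308), as it did with both arrays that stood apart omitted (-1.78, adjusted p = 0.0466).

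The H9 call of LATS2 was lost without H9 knockdown replicate 1 (-0.907, adjusted p = 0.475), H9 mismatch replicate 1 (-1.15, 0.338) or 2 (-1.51, 0.128). It was also lost, with the value kept at -1.33, without either CT2 knockdown array or either CT2 untreated array (adjusted p between 0.0546 and 0.057). Against untreated H9 cells the knockdown gave -0.87 ± 0.32 (adjusted p = 0.169). The replicates of the H9 knockdown differed by more than those of the other H9 groups for this gene.

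TGFBR2 read 9.72 and 9.78 in the H9 knockdown, against 9.16 and 9.08 with mismatch shRNA and 9.08 and 8.86 without treatment. The CT2 knockdown arrays read 9.17 and 9.28, against 9.23 and 8.43 with mismatch shRNA and 8.86 and 9.25 without treatment. In H9 the knockdown arrays were the highest without overlap, and in CT2 they overlapped both other groups. The difference of 0.51 ± 0.19 did not pass (adjusted p = 0.127), nor did that of a second probe (0.68, adjusted p = 0.0548). Without CT2 mismatch replicate 1 it was 0.711 and passed (adjusted p = 0.0139). STK38 gave -0.21 ± 0.15 (adjusted p = 0.468) and AKT1 0.05 ± 0.19 (adjusted p = 0.924), while HIPK3, detected on 3 of 12 arrays, gets no fold.

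In the lists around these 2 pathways, 10 of 12 genes of TGF-beta signalling were measured, of which 1 rose, 0 fell and 9 did not pass as the mean of the lines (median -0.06). SMAD7, an inhibitor of the receptor induced by the pathway itself, rose by 0.68 ± 0.17 (adjusted p = 0.0246) and also rose against untreated cells (1.01, adjusted p = 0.0032). Its call against mismatch shRNA was kept under 15 of 21 alternative settings, and was lost without either H9 knockdown array, either H9 mismatch array or CT2 knockdown replicate 1, and with the mean of all detected probes. Of 17 further Hippo genes 16 were measured, with 1 up, 1 down and 14 that did not pass as the mean of the lines (median -0.11). The transcription factor gene TEAD4 rose by 0.71 ± 0.17 (adjusted p = 0.0167), with 0.23 in H9 (adjusted p = 0.806) and 1.18 in CT2 (adjusted p = 0.0112). Its CT2 arrays read 12.73 and 12.9 in the knockdown, against 11.99 and 11.28 with mismatch shRNA and 12.92 and 12.79 without treatment. The CT2 mismatch arrays were thus the low ones, with -1.22 against untreated (adjusted p = 0.00518), and the knockdown gave -0.04 against untreated CT2 cells (adjusted p = 0.989). That CT2 mismatch difference was -0.236 with the mean of all detected probes and was lost there and without CT2 untreated replicate 1. CCN2, a secreted protein whose gene is a target of the Hippo effectors YAP1 and TEAD, fell by 0.81 ± 0.18 (adjusted p = 0.0134). Its arrays read 11.42 and 12.51 in the H9 knockdown, against 13.72 and 13.48 with mismatch shRNA, and 13.31 and 13.28 in the CT2 knockdown, against 13.25 and 13.31 with mismatch shRNA. The 2 low arrays are those of the H9 knockdown, on which LATS2 was also the lowest of the H9 arrays. In H9 alone CCN2 fell by 1.64 (adjusted p = 0.0018) and CCN1, its relative, by 1.09 (adjusted p = 0.0334), with 0.02 and 0.23 in CT2 (adjusted p = 0.982 and 0.676). The H9 call of CCN2 was kept under all 21 alternative settings and that of CCN1 under 12, the losses including those without H9 knockdown replicate 1 or H9 mismatch replicate 1. The TEAD4 call as the mean of the lines was kept under 15 and the CCN2 call under 17 of 21 alternative settings. Both were lost without the trend, without CT2 knockdown replicate 2 and without H9 mismatch replicate 1. CCN2 was also lost without both arrays that stood apart, and TEAD4 also without either H9 knockdown array. With the mean of all detected probes TEAD4 gave 0.392 and did not pass (adjusted p = 0.127), and its CT2 call was lost there too.

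The cytoskeleton and trafficking targets were the GTPase RHOC, the actin-severing protein CFL2, the microtubule-binding protein SLAIN1, and the Rab regulators RAB11FIP5 and RABGAP1. Of these 5, 0 passed (1, RHOC, at an unadjusted p under 0.05). The fitted differences were 0.31 ± 0.14 for RHOC, -0.10 ± 0.24 for CFL2, -0.31 ± 0.21 for SLAIN1, 0.41 ± 0.23 for RAB11FIP5 and -0.29 ± 0.14 for RABGAP1, with adjusted p between 0.216 and 0.862. SLAIN1 read 9.68 and 9.95 in the H9 knockdown, against 10.26 and 10.17 with mismatch shRNA, and 9.72 and 9.9 in the CT2 knockdown, against 9.91 and 10.14 with mismatch shRNA. Its groups did not overlap in either line, but untreated H9 arrays spread from 9.53 to 10.62, over the whole range of both. RAB11FIP5 had an adjusted p of 0.325 and passed only without CT2 mismatch replicate 1 (0.705, adjusted p = 0.0187).

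The remaining targets were DAZAP2, an adaptor protein, MBNL2, a splicing regulator, and TXNIP, which binds thioredoxin and restrains glucose uptake. DAZAP2 gave -0.31 ± 0.16 (adjusted p = 0.295) and passed only without both arrays that stood apart (-0.475, adjusted p = 0.0263). MBNL2 was detected on 7 of 12 arrays, with 0 of the 2 CT2 mismatch arrays among them, and gets no fold. TXNIP gave 0.38 ± 0.23 against mismatch shRNA (adjusted p = 0.372), with 0.65 and an adjusted p of 0.0335 without CT2 mismatch replicate 1. That array held the highest TXNIP value of the 12.

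**Figure D3:**
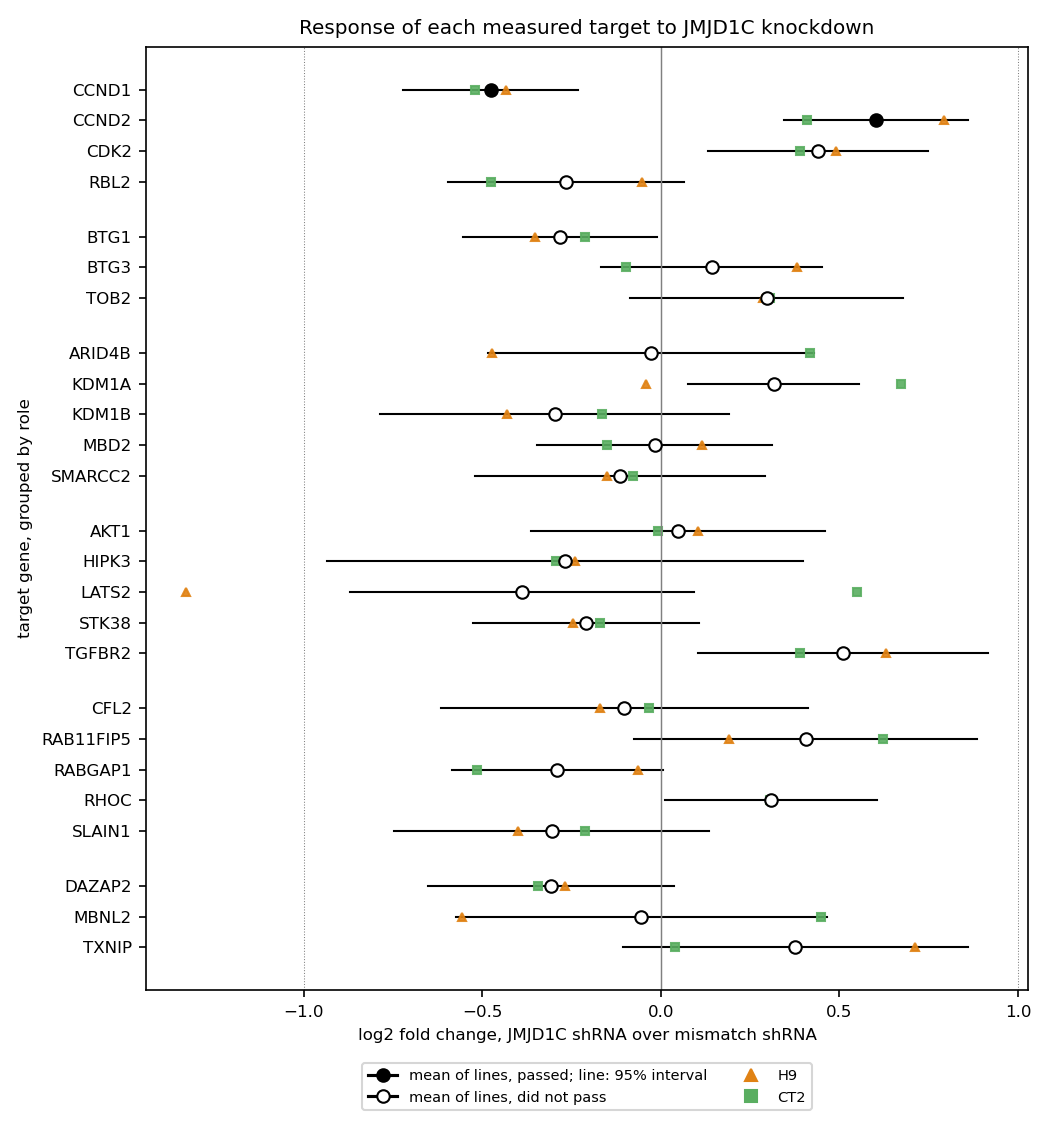
Log2 fold change of JMJD1C shRNA over mismatch shRNA for the 25 measured targets, grouped by role. Circles are the mean of the lines with its 95% interval (filled where the test passed, as for CCND1 and CCND2), triangles are H9 and squares are CT2; LATS2 has the widest gap between the lines, -1.33 in H9 and 0.55 in CT2.

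Taken line by line, 2 of 25 targets passed in H9 (CCND2 up and LATS2 down, 8%), where 2.55% of all genes did, and 1 passed in CT2 (KDM1A up, 4%), where 4.57% did. The difference between the lines passed for 0 of 25, with 2 at an unadjusted p under 0.05, beside 0.416% of all genes. Both knockdown arrays lay beyond both mismatch arrays for 15 targets in H9 (60%, all genes 47.3%) and for 10 in CT2 (40%, all genes 44.3%). The same direction without overlap in both lines was seen for 4 targets (16%), CCND2 and CDK2 higher and CCND1 and SLAIN1 lower, beside 17.0% of all genes. The fitted differences had the same sign in both lines for 18 targets (72%), 7 positive and 11 negative, beside 58.9% of all genes. The 7 with opposite signs included LATS2 and KDM1A, and also MBNL2, which read near background. ARID4B was among them too, and another of its probes had the signs the other way round.

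**Figure D4:**
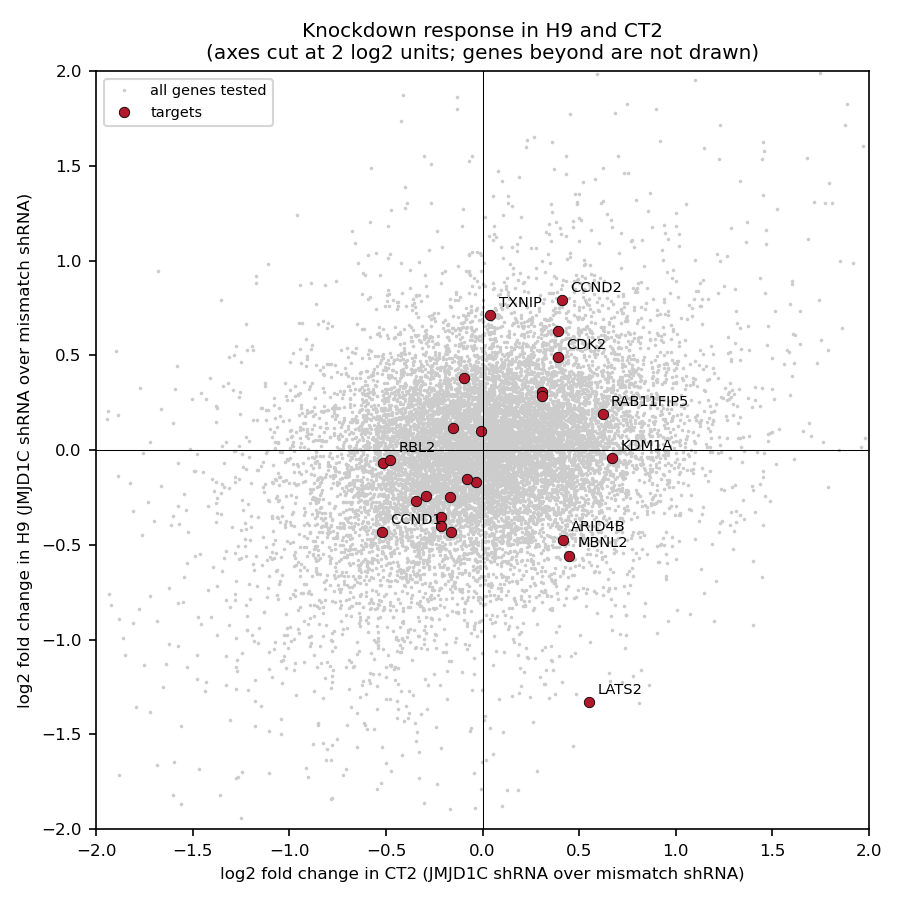
Log2 fold change of JMJD1C shRNA over mismatch shRNA in H9 (vertical) against CT2 (horizontal), for the 25 targets (red) over all genes tested (grey), with axes cut at 2 log2 units. CCND2 lies at 0.79 in H9 and 0.41 in CT2, CCND1 at -0.43 and -0.52, and LATS2 at -1.33 and 0.55.

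Against untreated cells, which share the knockdown arrays with the comparison above, 3 of 25 targets passed as the mean of the lines (12%), beside 3.43% of all genes. CCND2 rose by 0.73 ± 0.12 (adjusted p = 0.00253) and CCND1 fell by 0.62 ± 0.12 (adjusted p = 0.00626). The CCND1 call was lost under median scaling (-0.564, adjusted p = 0.0848) and without CT2 untreated replicate 1 (-0.579, adjusted p = 0.0552). TXNIP rose 2.73-fold (1.45 ± 0.23, adjusted p = 0.00201), a call kept under all 21 alternative settings (1.24 to 1.65). The median over the targets was 0.07, beside 0.03 over all genes. In H9 alone CCND2 (2.11-fold, adjusted p = 0.00214) and TXNIP (4.53-fold, adjusted p = 0.00143) rose and no other target passed, beside 3.09% of all genes. Both calls were kept under all 21 alternative settings. In CT2 alone CCND1 fell (-0.83 ± 0.17, adjusted p = 0.0461), where 0.315% of all genes passed. This call was lost under 13 of 21 alternative settings, with values between -0.739 and -0.911, among them every omission of a CT2 knockdown, CT2 untreated, H9 knockdown or H9 mismatch array. The difference between the lines passed for 0 targets (3 at an unadjusted p under 0.05), beside 0.194% of all genes.

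TXNIP also moved with the control hairpin. Its arrays read 11.86 and 11.03 in the H9 knockdown, 10.7 and 10.77 with mismatch shRNA and 9.01 and 9.53 without treatment. In CT2 they read 12.03 and 12.08 in the knockdown, 12.56 and 11.46 with mismatch shRNA and 11.43 and 11.25 without treatment. Every hairpin array lay above the untreated arrays of its line, and the knockdown and mismatch arrays overlapped in CT2 but not in H9. Mismatch shRNA against no treatment gave 1.07 ± 0.23 as the mean of the lines (2.10-fold, adjusted p = 0.0358), the only target to pass of 25 (4%, all genes 1.19%). It was 1.47 in H9 (adjusted p = 0.234) and 0.67 in CT2 (adjusted p = 0.197), where 0 targets passed in either line (4 and 6 at an unadjusted p under 0.05), beside 0.0502% of all genes in H9 and 11.0% in CT2. The call for the mean of the lines was lost without the trend (adjusted p = 0.09), without either H9 mismatch array (0.131 and 0.121), H9 untreated replicate 1 (0.942, 0.106), either CT2 untreated array (0.141 and 0.155) or either CT2 knockdown array (0.0523 for each).

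For mismatch shRNA against no treatment, the responses of the lines differed for KDM1A alone among the targets (0.84 ± 0.23, H9 minus CT2, adjusted p = 0.0381), beside 6.63% of all genes. KDM1A gave 0.39 in H9 (adjusted p = 0.431) and -0.45 in CT2 (adjusted p = 0.0821). RAB11FIP5 had a wider gap that did not pass, 0.78 in H9 and -0.25 in CT2 (difference 1.03 ± 0.45, adjusted p = 0.180).

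**Figure D5:**
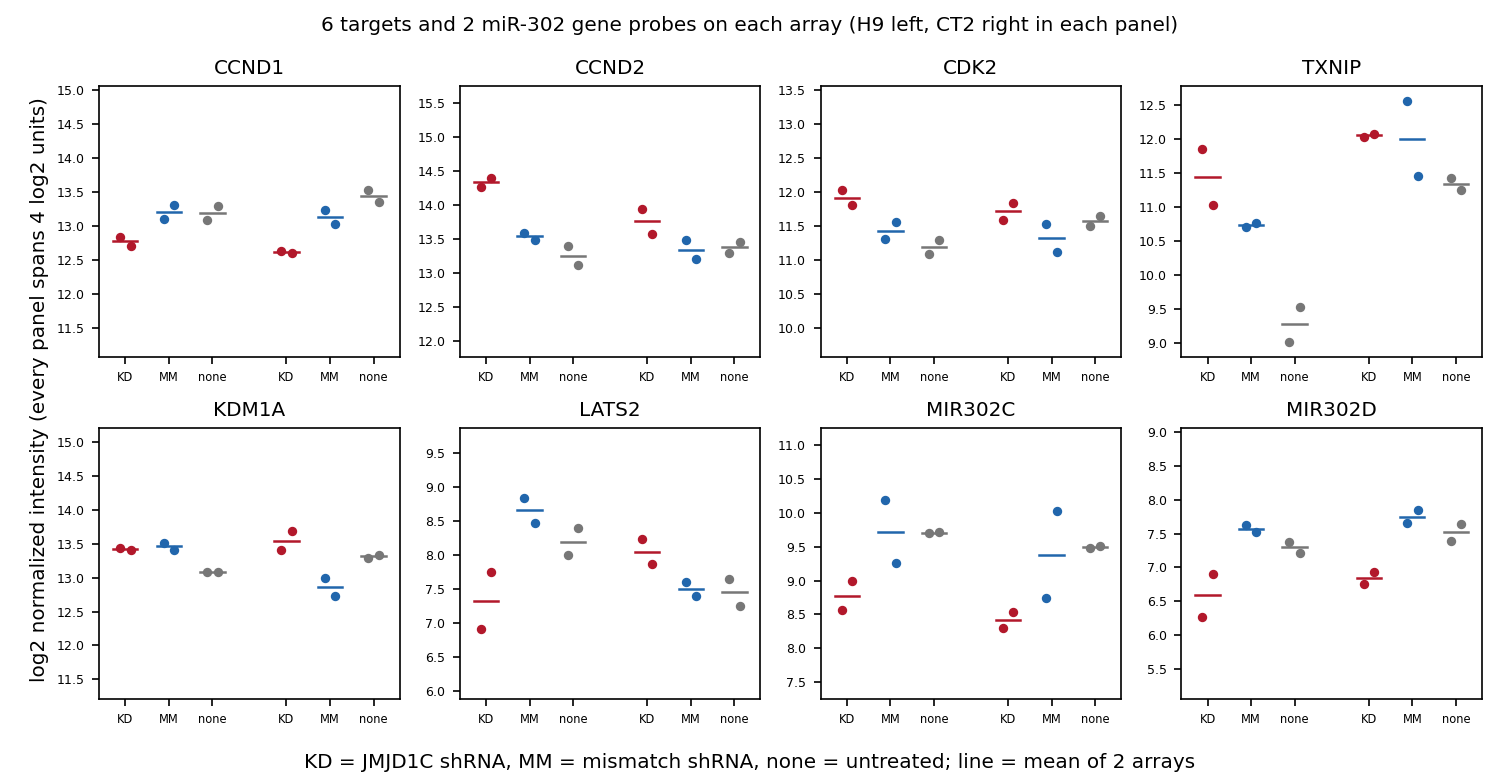
Log2 normalized intensity on each array of 6 targets (CCND1, CCND2, CDK2, TXNIP, KDM1A, LATS2) and of the probes for MIR302C and MIR302D, H9 left and CT2 right, ordered JMJD1C shRNA (KD), mismatch shRNA (MM) and untreated (none). Points are arrays and lines are means of 2 arrays; MIR302D is lowest on the 4 knockdown arrays, and TXNIP is lowest on the untreated H9 arrays, at 9.01 and 9.53.

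Between the untreated lines 2 of 25 targets passed (8%), beside 14.7% of all genes. TXNIP stood in H9 at 23.8% of its CT2 level (-2.07 ± 0.32, adjusted p = 0.00104), a call kept under all 20 alternative settings that could be run. AKT1 was 1.95-fold higher in H9, at 12.31 and 12.89 against 11.79 and 11.48 in CT2 (adjusted p = 0.0282). Another AKT1 probe detected on all arrays gave -0.07, with 11.43 and 11.92 in untreated H9 against 11.76 and 11.73 in CT2, so the AKT1 difference was seen on one probe and not on the other. The AKT1 call was lost with the mean of all detected probes (0.505, adjusted p = 0.184), without the trend (0.074), and without CT2 untreated replicate 1 (1.11, 0.0974) or 2 (0.812, 0.188) or H9 untreated replicate 2 (0.676, 0.170). RAB11FIP5 read 8.16 and 8.41 in untreated H9 against 9.39 and 9.13 in untreated CT2, without overlap, and just missed the threshold (-0.98 ± 0.32, adjusted p = 0.0505). Without both arrays that stood apart only 1 untreated H9 array was left, and the count of targets under that setting is given below with those of the other settings.

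Across the 6 groups the targets differed widely in how far their means ranged. TXNIP had the widest span, 2.78 log2 units (residual SD 0.429), followed by RAB11FIP5 with 1.35 (0.388), LATS2 with 1.33 (0.332) and CCND2 with 1.08 (0.171). CFL2 (0.348, residual SD 0.317) and RHOC (0.389, residual SD 0.195) had the narrowest spans. For CFL2 the span of the 6 means was close to the spread between replicates. The 25 genes had 45 probes, of which 38 were kept, and 10 genes had 13 further kept probes. A further probe had the opposite sign for knockdown against mismatch shRNA in 3 of these genes, ARID4B, BTG3 and SMARCC2.

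The arrays also carry probes for the microRNA genes. Since the labelling copies polyadenylated RNA, such probes read long transcripts across the locus and not the mature microRNA. MIR302C read 8.57 and 8.99 in the H9 knockdown, against 10.19 and 9.26 with mismatch shRNA, and 8.31 and 8.54 in the CT2 knockdown, against 8.74 and 10.02 with mismatch shRNA. MIR302D read 6.27 and 6.91 in the H9 knockdown, against 7.63 and 7.52 with mismatch shRNA, and 6.76 and 6.94 in the CT2 knockdown, against 7.66 and 7.84 with mismatch shRNA. Knockdown arrays lay below mismatch arrays in both lines for both probes. As the mean of the lines both fell, MIR302C to 51.8% (adjusted p = 0.0362) and MIR302D to 52% (adjusted p = 0.0141). Neither passed in a single line, with adjusted p = 0.263 (MIR302C) and 0.119 (MIR302D) in H9 and 0.148 and 0.103 in CT2. Against untreated cells MIR302C fell as the mean of the lines (-1.001, adjusted p = 0.0419), while MIR302D did not pass (-0.6907, adjusted p = 0.0904). The sizes against mismatch shRNA depended on the processing. MIR302D was at -0.94 on the log2 scale here, but at -0.471 without background correction and -0.501 in the authors' processed table. MIR302C was at -0.95, with -0.634 without CT2 mismatch replicate 2 and -1.27 without replicate 1 of that group. The MIR302D call was kept under 19 of 21 alternative settings and was lost without H9 knockdown replicate 1 or H9 mismatch replicate 1. The MIR302C call was kept under 12, and was lost without either CT2 knockdown array, CT2 mismatch replicate 2, either CT2 untreated array, either H9 knockdown array, H9 mismatch replicate 1 and without the trend. MIR302A and MIR302B were detected on 0 of 12 arrays. MIR372 was detected on 3 and MIR373 on 5, and both get no fold. In CT2 MIR372 read 6.525 and 6.971 with mismatch shRNA, against 5.61 and 5.78 in the knockdown and 5.508 and 5.723 without treatment. In H9 the knockdown and mismatch arrays overlapped for both of these probes. LARP7 gave -0.24 ± 0.16 against mismatch shRNA (adjusted p = 0.442). Beside the values of MIR302C and MIR302D against mismatch shRNA, the 25 targets had a median of -0.05, with 1 up, 1 down and 23 that did not pass.

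Of the microRNA processing and silencing genes, LARP7 included, 13 of 13 were measured, of which 1 rose, 1 fell and 11 did not pass as the mean of the lines (median -0.08). AGO1, an Argonaute protein, rose by 0.92 ± 0.15 (adjusted p = 0.00149), with 10.42 and 10.52 in the H9 knockdown, against 9.73 and 9.68 with mismatch shRNA, and 10.01 and 10.06 in the CT2 knockdown, against 9.12 and 8.81 with mismatch shRNA. Its call was kept under all 21 alternative settings, while against untreated cells it gave 0.47 (adjusted p = 0.101). The CT2 mismatch arrays of AGO1 stood low, with -0.85 against untreated (adjusted p = 0.0192), and the CT2 knockdown gave 0.22 against untreated (adjusted p = 0.875). In H9 the values against untreated were -0.04 for mismatch shRNA (adjusted p = 0.966) and 0.73 for the knockdown (adjusted p = 0.0816). TNRC6A, the Argonaute partner GW182, fell by 0.81 ± 0.21 as the mean of the lines (adjusted p = 0.026), with -0.25 in H9 (adjusted p = 0.843) and -1.37 in CT2 (adjusted p = 0.0163). In H9 it read 11.42 and 11.42 in the knockdown, against 11.65 and 11.69 with mismatch shRNA and 12.74 and 12.34 without treatment. In CT2 it read 11.37 and 10.66 in the knockdown, against 11.87 and 12.91 with mismatch shRNA and 10.68 and 10.57 without treatment. The CT2 mismatch arrays thus stood high, 3.39-fold above untreated (adjusted p = 0.00256, kept under all 21 alternative settings), and against untreated cells the knockdown gave -1.12 in H9 (adjusted p = 0.0482, kept under 7 of 21) and 0.39 in CT2 (adjusted p = 0.802). The CT2 call against mismatch shRNA was lost without CT2 knockdown replicate 2, CT2 mismatch replicate 2 or the trend. The call for the mean of the lines was kept under 12 of 21 alternative settings, the losses including those without CT2 mismatch replicate 2, CT2 knockdown replicate 2 or any 1 H9 knockdown or mismatch array.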

How the data were processed

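Total RNA of 12 samples was labelled with biotin and read on Illumina arrays, processed in GenomeStudio per the submitters' processing notes (version not given in the sources used here). Per the file headers, the deposited table holds an intensity for each probe, the mean bead signal, not normalized, and a detection p-value. Probes were joined by identifier across the separate H9 and CT2 blocks, 47320 and 47315 probes, which left 47314. The platform annotation gave 1 symbol to 30108 of these, several to 8 and none to 17198. A second deposited table, of intensity that the authors normalized separately per line, served as an alternative.

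In limma 3.58.1 (R 4.3.3), background was removed with the normal-exponential method (offset 16), followed by quantile normalization and log2. A probe stayed in if at least 2 arrays had a detection p below 0.05 (25905 probes), and the brightest per gene gave 13951 genes. All 12 arrays entered 1 limma fit of group means (trend and robust settings), so that groups share 1 estimate of the spread. Tests were two-sided, with Benjamini-Hochberg adjustment over all genes. Errors beside fold changes are standard errors. The fit was tested on simulated data.

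The targets come by name from published reports, but this set and the pathway lists were chosen with earlier results of these data known. All targets are named, and pathway genes where they passed as the mean of the lines (at most 3 per list by p). ZFP42, CCN1 and CDK6 were named after their values by line were seen. Other probes and the comparisons with untreated cells within a line were added with the data in hand. The number of arrays limits the precision. Same-numbered replicates did not vary together (correlations of deviations from -0.318 to 0.213), so replicate numbers were not taken as pairs. Alternatives were other background, scaling, filter, probe and variance settings, the replicate block and omitted arrays. An omission leaves a group with 1 array, assumed to vary like the others. Sequences are from the RefSeq microRNA table. Figures were drawn with matplotlib 3.10.9 in Python 3.11.15.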

Additional observations from a re-analysis of the deposited data

Results flagged for a closer look

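The response of KDM1A to the mismatch shRNA differed between the lines by a test of the difference itself, in a comparison added with the data in hand. It was the only target of 25 to pass (4%), beside 6.63% of all genes, and the response did not pass in either line alone. Mismatch shRNA over no treatment gave 0.39 in H9 and -0.45 in CT2, a difference of 0.836 ± 0.227 on the log2 scale (H9 minus CT2, limma, adjusted p = 0.0381). The 2 mismatch arrays lay above both untreated arrays in H9 and below both in CT2. Under the alternative settings the value lay between 0.696 and 0.997, and it no longer passed when CT2 mismatch replicate 2 was omitted (0.697, adjusted p = 0.132), with both arrays that stood apart left out (0.696, 0.123), under median scaling (0.997, 0.103) and with the replicate block (0.0711). It was also lost without either H9 mismatch array (0.109 for each), any 1 untreated array (0.0507 to 0.131) or either H9 knockdown array (0.0569 and 0.0568), with no filter on dim probes (0.052) and without the trend (0.116). The part of CT2 mismatch replicate 2 in the difference was not tested beyond its omission.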

How the results depend on the processing

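Over 21 alternative settings no called value changed sign. For knockdown against mismatch shRNA over both lines, the 2 targets called became 1 with median scaling and 1 without trend and robust settings, and 1 to 7 when 1 array was left out. The 7, without CT2 mismatch replicate 1, were CCND1, CCND2, CDK2, TXNIP, KDM1A, TGFBR2 and RAB11FIP5, where 12.9% of all genes passed. In H9 the 2 became 1 without the trend and 0 to 2 with an array left out. In CT2 the 1 became 0 without the trend, 0 with the replicate block, and 0 to 2 with an array left out. The line difference went to 1 (LATS2) without both arrays that stood apart, and to 0 or 1 with an array left out. Mismatch against untreated became 0 without the trend, 2 without both arrays (TXNIP and DAZAP2), and 0 to 2 with an array left out. Untreated H9 against CT2 became 1 without the trend, 5 without both arrays and 1 to 3 with an array left out. Knockdown against untreated stayed at 2 to 4. Apart from the 12.9% above, the share of all genes under each setting is not set beside these counts. They show how far the counts depend on the processing and are no result about the targets. The targets' median lay between -0.219 and 0.108 with an array left out, the ends being without H9 knockdown replicate 2 and replicate 1. With the replicate block, CCND1 in CT2 against untreated cells was also lost (-0.826, adjusted p = 0.0802), as were KDM1A in CT2 (0.672, 0.0561) and the KDM1A line difference of mismatch against untreated (0.836, 0.0711). It changed no other call of a target reported above. Of the 23 targets not called, 17 passed under none of the 21 settings, 6 passed at least once and 7 changed sign at least once. The cause of these changes was not tested, except that an omitted array leaves fewer samples. The authors' table was not run for H9 against CT2 because it was normalized separately in each line. Signal near background limits KDM1B, HIPK3 and MBNL2, and that of CFL2 was low as well. For knockdown against mismatch shRNA, KDM1B was measured under 20 and HIPK3 under 19 of the 21 settings.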
